A study of Mus musculus with 10 samples.

Results

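The nuclear genes of the mitochondrial respiratory chain were followed through the epithelium of the mouse small intestine, from stem cell to villus enterocyte. Members were chosen by symbol alone: every gene whose name in the platform table begins with Nduf, Uqcr or Atp5, or with Cox followed by a digit from 4 to 8, and the genes Sdha to Sdhd. The rule gave 84 of the 12393 genes that the array reads with a probe set naming a single gene. By complex there were 39 members for complex I (6 core subunits, 28 other subunits and 5 assembly factors), 4 for complex II, 8 for complex III, 16 for complex IV and 17 for complex V. The members were read by 156 probe sets, and each of the 45 members with more than 1 was represented by the probe set with the highest mean.

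The respiratory chain sits in the inner mitochondrial membrane. Complex I takes electrons from NADH, complex II takes them from succinate and is at the same time an enzyme of the citrate cycle, and both hand them to ubiquinone. Complex III passes them to cytochrome c, complex IV reduces oxygen, and complex V uses the proton gradient to make ATP. In the small intestine this machinery supplies energy for nutrient uptake by villus enterocytes, and mitochondrial activity is also known to differ between cell types of the crypt.

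The data comprise 10 Affymetrix mouse 430A 2.0 arrays, with 2 in each of 5 groups, all from C57BL/6 mice. ISC were stem cells sorted for green fluorescent protein from Lgr5-eGFP-Cre mice. Secretory progenitors came from crypts of mice with a knockout of Rbpj, the DNA-binding partner of Notch (Rbpj Sec-Pro), or of mice given the Notch inhibitor dibenzazepine (DBZ Sec-Pro). Enterocyte progenitors (Ent-Pro) came from the crypts, and mature enterocytes (ENT) from the villi, of Atoh1-/- mice. Crypts were loosened with 5 mM EDTA over 50 min and villi over 25 min, and total RNA was taken with Trizol. The labels give no age, no dose of dibenzazepine and no promoter or Cre line for the loss of Rbpj or Atoh1. Nothing in them ties the arrays to separate mice, and the p-values then reflect only how far these samples spread, which can be technical. In RNA from whole crypts or villi, fewer cells of a type and less RNA per cell cannot be told apart.

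Values are the log2 intensities the authors deposited. Of the members, 78 had a mean above that of the median gene, and none came within 1 (log2) of the absent control TrpnX, at 3.62 to 3.82, in any group. This does not show that every member was expressed. The lowest member mean was 5.57, and stromal markers averaged 5.15 to 5.72 on all arrays. Members near that level, among them Cox8b and, after dibenzazepine, Cox6b2, may read little more than background. On their means stem and secretory markers followed the labels, and enterocyte markers did not separate the progenitors. Of 12 secretory markers 11 were lower in ENT than in ISC, but 1, Dclk1, was higher (3.75, SE 0.97, adjusted p = 0.010, limma). Against Ent-Pro 2 of them were higher in ENT and 3 lower (limma, adjusted p under 0.05). Over 8 stem cell markers the mean was 10.59 and 10.41 in ISC and 7.53 to 9.15 elsewhere, and over 12 secretory markers it was 12.04 to 12.77 in the Sec-Pro arrays, 10.10 and 10.28 in ISC and 6.34 to 7.03 in Ent-Pro and ENT. Over 8 enterocyte markers it was at most 11.12 in ISC, 12.77 to 13.92 in the Sec-Pro arrays, 13.29 and 13.06 in Ent-Pro and highest in ENT, at 13.98 and 14.09. The ISC arrays stood apart in 2 of 4 controls for the 3′ and 5′ ends of a transcript. The 3′ control probe set of Gapdh exceeded its 5′ probe set by 1.61 and 1.81 (log2) in ISC and by -0.02 to 0.32 on the other 8 arrays. For Actb the difference was 1.92 and 2.02 against 0.45 to 1.01. The other controls did not set ISC apart, with 1.49 and 1.26 in ISC against 1.03 to 3.37 for pyruvate carboxylase and 1.45 and 0.78 against 0.07 to 1.72 for the transferrin receptor. Comparisons among the other 4 groups therefore come first, and those with ISC follow with the values this touches.

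Respiratory chain genes stood highest in villus enterocytes and lowest in crypts treated with dibenzazepine. Both ENT arrays lay above all 8 other arrays for 56 of 84 members, 66.7%, where 18.5% of all genes showed that pattern. Both DBZ Sec-Pro arrays lay below all others for 33 members, 39.3%, against 7.29% of all genes. Rbpj Sec-Pro was below all others for 3 members (Cox7a2l, Ndufa7 and Sdhc), against 11.2% of all genes. No member was highest in Rbpj or DBZ Sec-Pro or lowest in Ent-Pro, patterns that 2.36%, 7.46% and 3.46% of all genes showed, and 1 was lowest in ENT, against 15.4%. ISC was above all others for 6 members (Atp5k, Cox6b2, Cox7a2l, Ndufa2, Ndufb11 and Ndufs7) and below for 10, where 18.0% and 12.4% of all genes were. Ent-Pro was above all others for 5 members (Atp5g2, Cox7c, Ndufa4, Ndufaf1 and Ndufaf7), 5.95% against 6.02% of all genes. Over the 5 groups, limma's F test with Benjamini-Hochberg adjustment over all genes called 75 members at an adjusted p under 0.05, 89.3% against 66.1% of all genes.

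**Figure D1:**
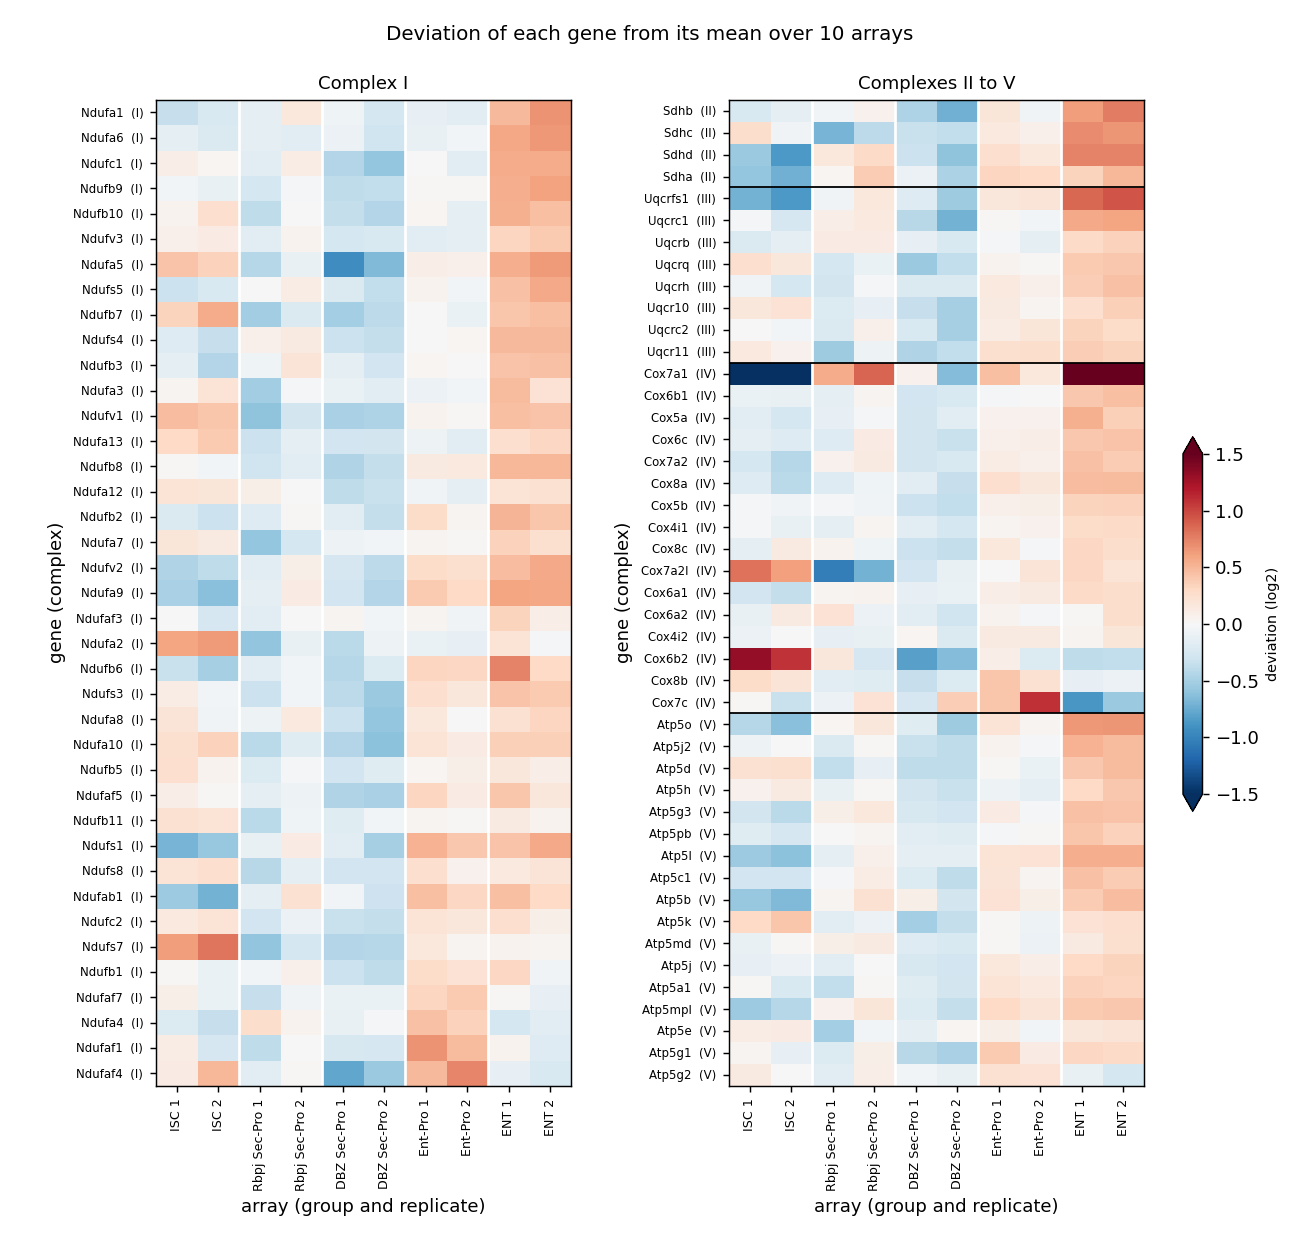
Deviation (log2) of each of the 84 members from its own mean over 10 arrays, grouped by complex, with 1 column per array. The 2 ENT columns are mostly above 0 and the 2 DBZ Sec-Pro columns mostly below it, and Cox7a1 runs past the colour scale in ISC and ENT.

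ENT was the highest group in each of the 5 complexes. The deviation of each member from its own mean over 10 arrays, taken as the median over a complex, was 0.41 and 0.32 on the ENT arrays for complex I, 0.67 and 0.70 for complex II, 0.37 and 0.38 for complex III, 0.31 and 0.28 for complex IV and 0.38 and 0.39 for complex V. On the DBZ Sec-Pro arrays it was -0.29 and -0.36, -0.33 and -0.54, -0.29 and -0.43, -0.27 and -0.25 and -0.20 and -0.28 in the same order. In ISC complex II stood at -0.39 and -0.44, overlapping DBZ Sec-Pro, while complex I stood at 0.09 and -0.04. This difference was not tested. Complex II has 4 members, and values against ISC, whose arrays had the 3′ excess in Gapdh and Actb, differed by the kind of probe set.

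**Figure D2:**
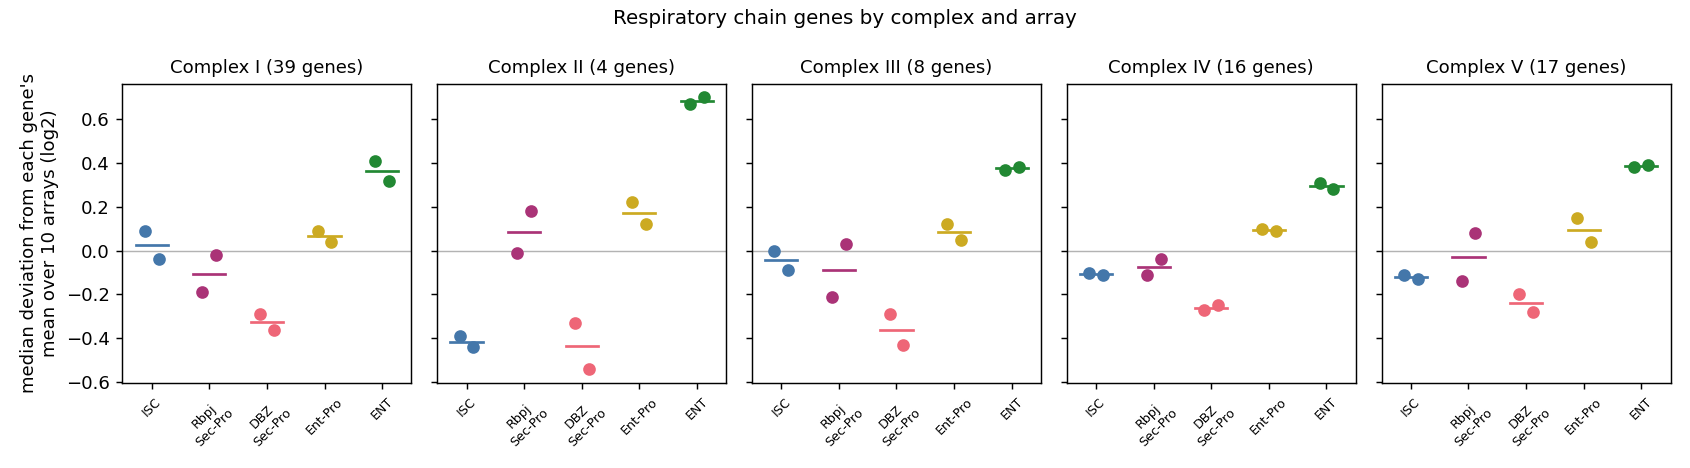
Median deviation (log2) of the members of each complex from their own means over 10 arrays, with a dot for each array and a line for the mean of each group's 2 arrays. ENT is highest in every complex, at 0.28 to 0.70, and the ISC dots of complex II lie at -0.39 and -0.44.

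The promoters of the members were examined because many of them stood high in ENT together, while Cox7a1 moved much further than its paralogue Cox7a2. RefSeq sequence on GRCm38.p6 was matched for 70 of 84 members, giving 75 windows, and the 250 bases before each start were searched on both strands. The NRF1 motif was in 16% of member windows and 3.74% of all 32851 windows of this length. The ETS motif CCGGAAG, of the type bound by GABP, was in 17.3% and 6.91%. For the others the shares were 36% and 32.7% (SP1, GGGCGG), 4% and 1.55% (CRE, TGACGTCA), 1.33% and 0.387% (ERR, TCAAGGTCA), 1.33% and 0.301% (YY1), and 0% and 0.384% (HNF4, CAAAGTCCA). Median GC content was 57.6% in member windows and 52.4% in all windows. The windows shown are those of Cox7a1 (chr7:30183921-30184170, plus strand), its paralogue Cox7a2 (chr9:79759854-79760103, minus strand), Sdhd (chr9:50603850-50604099, minus strand) and Uqcrfs1 (chr13:30545317-30545566, minus strand), each 5′ to 3′ in the direction of its gene, with motif matches in capitals.
Cox7a1: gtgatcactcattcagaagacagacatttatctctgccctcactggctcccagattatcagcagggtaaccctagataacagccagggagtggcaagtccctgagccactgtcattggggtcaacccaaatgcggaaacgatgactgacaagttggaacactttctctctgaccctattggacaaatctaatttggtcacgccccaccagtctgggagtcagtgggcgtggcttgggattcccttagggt
Cox7a2: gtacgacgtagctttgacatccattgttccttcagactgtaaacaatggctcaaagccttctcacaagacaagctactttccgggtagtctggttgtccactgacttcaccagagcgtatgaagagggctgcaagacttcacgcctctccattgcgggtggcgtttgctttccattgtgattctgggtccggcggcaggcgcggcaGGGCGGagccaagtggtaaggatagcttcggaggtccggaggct
Sdhd: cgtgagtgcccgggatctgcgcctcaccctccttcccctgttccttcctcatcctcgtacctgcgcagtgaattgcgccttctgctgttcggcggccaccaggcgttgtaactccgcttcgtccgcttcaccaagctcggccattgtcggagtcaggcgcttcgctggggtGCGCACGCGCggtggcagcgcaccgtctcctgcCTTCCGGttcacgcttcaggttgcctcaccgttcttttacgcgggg
Uqcrfs1: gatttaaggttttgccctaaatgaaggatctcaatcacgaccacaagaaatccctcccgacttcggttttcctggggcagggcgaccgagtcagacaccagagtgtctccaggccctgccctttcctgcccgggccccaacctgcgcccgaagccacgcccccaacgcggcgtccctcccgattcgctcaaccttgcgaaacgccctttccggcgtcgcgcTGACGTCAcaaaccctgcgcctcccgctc
The window of Cox7a1 held none of the 7 motifs, and that of Cox7a2 held an SP1 match at positions -44 to -39 from the start. Sdhd had an NRF1 match at -79 to -70 and, on the opposite strand, an ETS match at -46 to -40. Uqcrfs1 had a CRE, which reads the same on both strands, at -29 to -22. A match describes these letters only, not a site that is bound.

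Mature enterocytes were compared with their crypt progenitors, both lacking Atoh1, to follow the chain as cells leave the crypt. In ENT 31 of 84 members were higher than in Ent-Pro and 7 were lower (limma, adjusted p under 0.05), where 18.5% of all genes were called higher and 20.2% lower. The median difference was 0.26 over the members and 0.02 over all genes tested, and 71 members had the higher mean in ENT. Higher calls came from every complex: 15 of 39 in complex I, 3 of 4 in complex II, 4 of 8 in complex III, 3 of 16 in complex IV and 6 of 17 in complex V. Complex IV, at 18.8%, was close to the 18.5% of all genes. With any one of the Ent-Pro or ENT arrays left out, fewer members were called higher, a share near or below that of all genes in the same fit. The members' median was 0.22 to 0.30 whichever array was left out. Without one of the Ent-Pro or ENT arrays it lay 0.22 to 0.26 above the median of all genes. Of all calls over the array 47.8% were higher, or 58.3% with arrays centred on their medians, which moved the median of all genes to 0.15 and left the members 0.24 above it.

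In complex I 14 of 28 accessory subunits (50.0%) and 1 of 6 core subunits (16.7%) were called higher, where 18.5% of all genes were. The higher mean was in ENT for 5 of the 6 core subunits. Probe sets of the core subunits Ndufs7 and Ndufs8 differed in sign, so this count may depend on the probe set chosen. The difference between accessory and core subunits was not tested. Ndufa1, a small membrane subunit, read 12.92 and 12.88 in Ent-Pro and 13.53 and 13.71 in ENT, a rise of 0.72 (SE 0.14, adjusted p = 0.0037). Ndufa6 read 11.85 and 11.91 against 12.53 and 12.61, a rise of 0.69 (SE 0.12, adjusted p = 0.0018). For both genes the ENT arrays lay above all 8 others, whose values were 12.70 to 13.20 for Ndufa1 and 11.66 to 11.91 for Ndufa6. Ndufv1, which binds NADH and was the core subunit called, rose by 0.41 (SE 0.13, adjusted p = 0.035).

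The assembly factors of complex I, which help to build it and are not part of the finished enzyme, included 3 that fell. Ndufaf4 read 10.66 and 10.90 in Ent-Pro and 10.05 and 9.94 in ENT (-0.79, SE 0.17, adjusted p = 0.0049), and its other probe set gave -1.27. Ndufaf1 read 9.61 and 9.42 against 9.0 and 8.75 (-0.64, SE 0.18, adjusted p = 0.019). Ndufaf7, which methylates a core subunit, read 8.52 and 8.59 against 8.21 and 8.07 (-0.41, SE 0.14, adjusted p = 0.042). For each of the 3 both ENT arrays lay below both Ent-Pro arrays. The remaining assembly factors did not pass, Ndufaf3 at 0.22 (adjusted p = 0.27) and Ndufaf5 at 0.07 (adjusted p = 0.75). Among the 34 subunits listed under complex I, 1 fell. This was Ndufa4, named for complex I but since assigned to complex IV, which read 12.97 and 12.88 in Ent-Pro and 12.27 and 12.36 in ENT (-0.62, SE 0.12, adjusted p = 0.0041). Ent-Pro was above every other array for this gene.

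Complex II rose in its iron-sulfur subunit and in both membrane anchors. Sdhb, which carries the iron-sulfur clusters, read 12.89 and 12.66 in Ent-Pro and 13.34 and 13.48 in ENT, a rise of 0.63 (SE 0.14, adjusted p = 0.0066). The anchors Sdhc and Sdhd rose by 0.58 (SE 0.15, adjusted p = 0.015) and 0.54 (SE 0.15, adjusted p = 0.018). Sdha, the flavoprotein that oxidises succinate, read 12.50 and 12.48 in Ent-Pro and 12.51 and 12.68 in ENT, and its difference of 0.11 did not pass (adjusted p = 0.69). Its other probe set gave 0.44. In complex III, Uqcrfs1, the Rieske iron-sulfur protein, read 12.35 and 12.38 against 13.05 and 13.12, a rise of 0.72 (SE 0.15, adjusted p = 0.0043). Uqcrc1, a core protein of the complex, rose by 0.59 (SE 0.14, adjusted p = 0.0084).

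Complex IV held both the largest rise and the largest fall among the members. Cox7a1, the isoform of subunit VIIa best known from heart and skeletal muscle, read 10.36 and 10.06 in Ent-Pro and 12.21 and 12.18 in ENT. This is a 3.96-fold rise, 1.98 (SE 0.26, adjusted p = 4.5e-04) on the log2 scale, and its value without each array in turn was 1.84 to 2.13. Cox7a2, the widely expressed isoform, read 13.69 and 13.66 against 14.03 and 13.96, a difference of 0.32 that missed the threshold (adjusted p = 0.053). Cox6b1, the common form of subunit VIb, read 13.82 and 13.86 against 14.26 and 14.30, a rise of 0.44 (SE 0.11, adjusted p = 0.013). Cox7c was the 1 member lowest in ENT, at 6.49 and 6.82 against 7.78 and 8.46 in Ent-Pro (-1.47, SE 0.28, adjusted p = 0.0029), and its dimmer probe set gave -1.07. Its ENT values were near the array medians of all probe sets, 6.83 to 6.98, and far below those of Cox7a2 and Cox6b1. Which transcript this probe set reads was not tested. Cox8b, a muscle isoform, read 5.98 and 5.79 in Ent-Pro and 5.45 and 5.48 in ENT (-0.42, SE 0.12, adjusted p = 0.020), near the level of the stromal markers.

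In complex V, Atp5o, part of the stalk that holds the catalytic head to the membrane, read 13.33 and 13.16 in Ent-Pro and 13.78 and 13.79 in ENT, a rise of 0.54 (SE 0.15, adjusted p = 0.020). Atp5j2 rose by 0.49 (SE 0.12, adjusted p = 0.011). The genes Atp5g1, Atp5g2 and Atp5g3 encode the same mature protein, subunit c of the rotating ring. Atp5g3 read 14.06 and 13.92 against 14.39 and 14.37, a rise of 0.39 (SE 0.11, adjusted p = 0.025), while Atp5g2 read 12.15 and 12.14 against 11.81 and 11.66 (-0.41, SE 0.13, adjusted p = 0.035). Atp5g1 read 12.88 and 12.62 against 12.80 and 12.78, a difference of 0.04 (adjusted p = 0.88). So 1 of these genes rose, 1 fell and 1 did not pass.

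Of the 18 members named by rule in this comparison, 7 kept their call without each array in turn (Cox7a1, Cox7c, Ndufa1, Ndufa4, Ndufa6, Ndufaf4 and Uqcrfs1). Markers of other cell types moved alongside. The mean over 15 leukocyte markers was 6.09 and 6.07 in Ent-Pro and 6.91 and 7.15 in ENT, with 6 called higher, and the pan-leukocyte gene Ptprc read 6.18 and 6.06 against 8.39 and 9.05. Over 14 proliferation genes the mean was 10.46 and 10.32 against 8.32 and 8.31, with 14 called lower. Their part in the differences of the members was not tested.

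**Figure D3:**
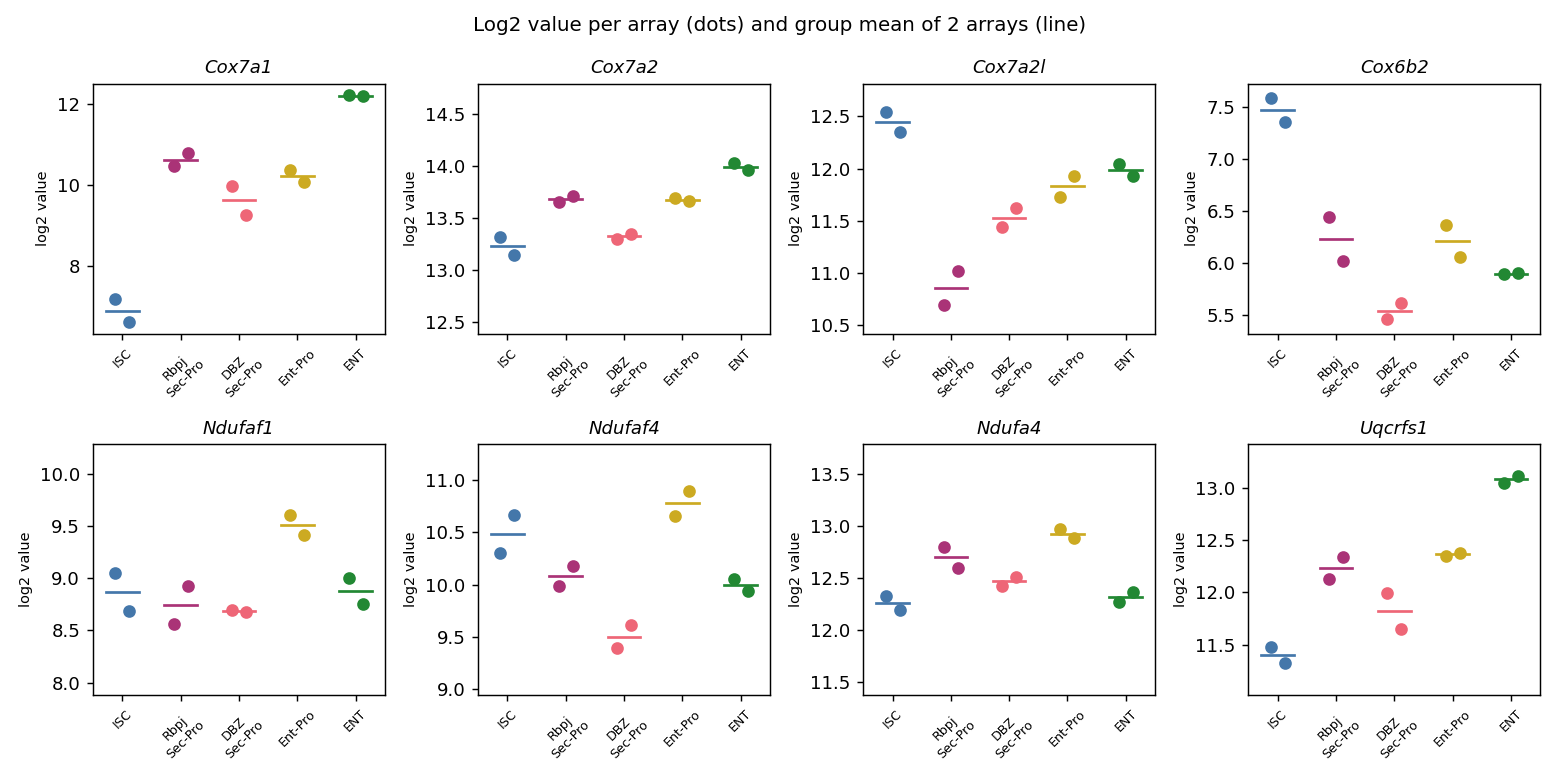
Log2 values of 8 members on each array (dots) with the mean of each group (lines), on a scale of its own for each gene. Cox7a1 spans 6.60 to 12.21, Ndufaf1 and Ndufa4 stand highest in Ent-Pro, and Cox6b2 and Cox7a2l stand highest in ISC.

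Genes of related mitochondrial functions did not all rise with the chain, and their counts are to be read against the 18.5% of all genes higher in ENT and the 20.2% lower. Of 18 genes of the citrate cycle and pyruvate entry, 7 were higher in ENT than in Ent-Pro and 2 were lower. Pcx, which makes oxaloacetate from pyruvate, read 7.76 and 7.18 in Ent-Pro and 10.43 and 10.34 in ENT (2.91, SE 0.19, adjusted p = 4.4e-05). Ogdh and Cs, citrate synthase, rose by 1.40 (adjusted p = 2.1e-04) and 0.84 (adjusted p = 7.4e-04), while Idh2 changed by -1.07 (adjusted p = 0.0030). Of 15 electron carrier and ubiquinone synthesis genes 3 were higher and 3 lower, close to the shares of all genes. Cytochrome c, Cycs, rose by 0.75 (adjusted p = 0.0014), and Gpd2, which feeds in electrons from glycerol phosphate, by 1.31 (adjusted p = 7.2e-04). Of 16 carriers and porins 6 were higher and 0 lower (7 and 0 at an unadjusted p under 0.05, limma), among them Mfn2, a fusion protein of the outer membrane, with 1.14 (adjusted p = 3.8e-04). Of 8 genes for superoxide and peroxide removal 3 were higher (Gpx4, Gsr and Sod2) and 0 lower (3 and 0 unadjusted, limma).

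Genes for protein import, and most of the biogenesis regulators called, were lower in ENT. Of 25 import genes 15 were lower in ENT and 0 higher (16 and 0 at an unadjusted p under 0.05, limma), with a median of -0.46. Hspd1, the matrix chaperonin, read 13.39 and 13.29 in Ent-Pro and 11.83 and 11.98 in ENT (-1.43, SE 0.14, adjusted p = 1.1e-04), and the intermembrane space chaperone Timm8a1 changed by -1.26 (adjusted p = 2.8e-04). Of 18 biogenesis regulators 10 were lower and 3 higher. Tfam, which packages mitochondrial DNA, read 10.80 and 10.78 against 9.81 and 9.66 (-1.05, SE 0.24, adjusted p = 0.0076). Ssbp1, which binds that DNA when single-stranded, read 12.27 and 12.35 against 10.81 and 10.88 (-1.47, SE 0.13, adjusted p = 7.9e-05), and the coactivator Pprc1 9.04 and 9.13 against 7.37 and 6.66 (-2.07, SE 0.21, adjusted p = 1.2e-04). The 3 higher were Polg2, the nuclear receptor Esrra (0.92, SE 0.14, adjusted p = 8.8e-04) and Ppargc1a, the best known coactivator of mitochondrial genes. Ppargc1a read 8.22 and 8.19 against 9.77 and 10.79 (2.07, SE 0.33, adjusted p = 0.0011). Of 24 assembly factors of complexes II to V 5 were higher and 6 lower, where 18.5% and 20.2% of all genes were. Without Ent-Pro replicate 1 the lower calls were 8 for import and 4 for biogenesis, while their medians stayed within -0.48 to -0.40 and -0.52 to -0.45 whichever array was left out.

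**Figure D4:**
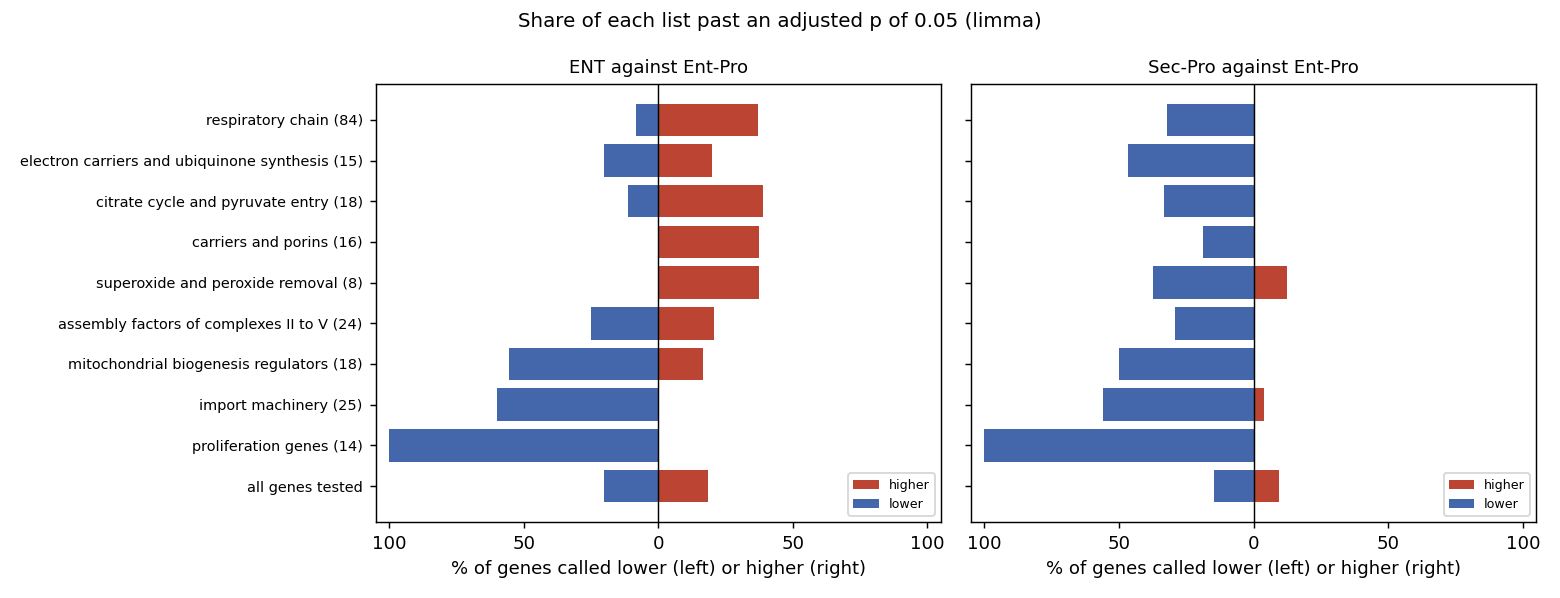
Percentage of genes called lower and higher (limma, adjusted p under 0.05) in each mitochondrial list and in the proliferation list, with the number measured in brackets, for ENT against Ent-Pro and for Sec-Pro against Ent-Pro. In the first comparison the chain has 31 of 84 members higher and import has 15 of 25 genes lower, and in the second no member of the chain is higher.

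Secretory and enterocyte progenitors of the crypt were compared to set one branch against the other. All Ent-Pro arrays came from Atoh1-/- mice, and all Sec-Pro arrays from mice with Rbpj loss or dibenzazepine. Branch therefore cannot be told apart from genotype or drug here. In Sec-Pro, taken as the mean of both groups, 27 of 84 members were lower than in Ent-Pro and 0 were higher (limma, adjusted p under 0.05), where 14.7% of all genes were lower and 9.27% higher. At an unadjusted p under 0.05 the counts were 48 and 0. The median was -0.28 over the members and -0.09 over all genes, and 3 members had the higher mean in Sec-Pro. The lower calls were 19 of 39 in complex I, 1 of 4 in complex II, 3 of 8 in complex III, 3 of 16 in complex IV and 1 of 17 in complex V. With either Ent-Pro array left out, few members were called lower, a share near or below that of all genes in the same fit. The members' median was -0.34 to -0.25 whichever array was left out. Without Ent-Pro replicate 1 or 2, the members' median minus that of all genes was -0.18 and -0.22. Of all calls over the array 38.6% were higher, 28.6% with arrays centred and 53.8% after cyclic loess.

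All 6 core subunits of complex I in the set were lower. Ndufs1, which carries iron-sulfur clusters, read 11.48 and 11.36 in Ent-Pro, 10.85 and 11.09 after loss of Rbpj and 10.79 and 10.45 after dibenzazepine (-0.63, SE 0.13, adjusted p = 0.011). Ndufv1 read 12.47 and 12.44 in Ent-Pro and 11.81, 12.14, 11.94 and 11.95 in the Sec-Pro arrays (-0.49, SE 0.11, adjusted p = 0.015). The core subunits Ndufs3, Ndufs7, Ndufs8 and Ndufv2 changed by -0.55 (adjusted p = 0.012), -0.53 (adjusted p = 0.015), -0.44 (adjusted p = 0.025) and -0.44 (adjusted p = 0.022). For all 6 the 4 Sec-Pro arrays lay below both Ent-Pro arrays.

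Among the assembly factors 4 of 5 were lower. Ndufaf4 read 10.66 and 10.90 in Ent-Pro, 9.99 and 10.18 after loss of Rbpj and 9.39 and 9.61 after dibenzazepine. Its difference of -0.99 (SE 0.14, adjusted p = 0.0023) was the largest of any member, its other probe set gave -1.10, and it alone of the 10 members named by rule here kept its call without each array in turn. Ndufaf1 read 8.56, 8.93, 8.70 and 8.68 in the Sec-Pro arrays against 9.61 and 9.42 (-0.79, SE 0.15, adjusted p = 0.0083). Ndufaf5 and Ndufaf7 changed by -0.51 (adjusted p = 0.013) and -0.51 (adjusted p = 0.017). Of the 28 other subunits 9 were lower, the largest difference being that of Ndufa5 (-0.62, SE 0.13, adjusted p = 0.010).

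In complexes II to V 8 members were lower. The shares were 25.0% in complex II, 37.5% in complex III, 18.8% in complex IV and 5.88% in complex V. Of all genes 14.7% were lower, so complex IV was near that share and complex V below it. The anchor Sdhc of complex II changed by -0.56 (SE 0.13, adjusted p = 0.017), and the small complex III subunit Uqcr11 by -0.61 (SE 0.13, adjusted p = 0.013). In complex IV, Cox7a2l read 11.73 and 11.93 in Ent-Pro, 10.69 and 11.02 after loss of Rbpj and 11.44 and 11.62 after dibenzazepine (-0.63, SE 0.13, adjusted p = 0.012). Its protein links complexes III and IV, and C57BL/6 mice are known to carry a shortened form. Cox8b and Cox8a changed by -0.55 (adjusted p = 0.0073) and -0.40 (adjusted p = 0.033), Cox8b near the level of the stromal markers. Cox7a1, so different between ENT and Ent-Pro, read 9.26 to 10.78 in Sec-Pro against 10.36 and 10.06 in Ent-Pro and did not pass (-0.09, SE 0.23, adjusted p = 0.79). In complex V, Atp5g1 was the member called, with means of 12.43 in Rbpj and 12.04 in DBZ Sec-Pro against 12.88 and 12.62 on the Ent-Pro arrays (-0.52, SE 0.13, adjusted p = 0.021).

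Each Sec-Pro group alone had no member called above Ent-Pro, also at an unadjusted p under 0.05 (0 for both, limma). Rbpj Sec-Pro had 13 members lower (15.5%) and DBZ Sec-Pro 38 (45.2%), where 16.9% and 9.77% of all genes were lower and 9.37% and 8.84% higher. In Rbpj Sec-Pro the share of lower calls was thus near that of all genes, and the median was -0.20 against -0.12 over all genes. Of the 6 core subunits of complex I, 3 were called lower in Rbpj Sec-Pro and 6 in DBZ Sec-Pro. These comparisons share the Ent-Pro arrays. Other mitochondrial lists also had genes lower in Sec-Pro, to be read against 14.7% of all genes: 14 of 25 import genes (1 higher, Timm17b), 9 of 18 biogenesis regulators, 7 of 15 electron carrier and ubiquinone genes and 6 of 18 citrate cycle genes. Lower calls also came to 7 of 24 assembly factors of complexes II to V and 3 of 8 genes for superoxide and peroxide removal (1 higher, Glrx2). For carriers and porins they came to 3 of 16, near the share of all genes. The coactivator Ppargc1b read 10.51 and 10.72 in Ent-Pro and 9.01, 9.39, 8.42 and 8.55 in the Sec-Pro arrays (-1.77, SE 0.14, adjusted p = 8.0e-05). Without Ent-Pro replicate 1 the lower calls were 5 for import and 1 for biogenesis, and their medians stayed within -0.50 to -0.39 and -0.51 to -0.37 whichever array was left out. Leukocyte markers averaged 6.60 to 7.87 in Sec-Pro against 6.09 and 6.07 in Ent-Pro, with 5 of 15 called higher, and proliferation genes 9.22 to 9.75 against 10.46 and 10.32, with 14 of 14 called lower. Enterocyte markers averaged 12.77 to 13.92 in Sec-Pro and 13.29 and 13.06 in Ent-Pro, with 0 of 8 called higher and 0 lower (1 and 0 at an unadjusted p under 0.05, limma) and a median of 0.21. The part of these lists was not tested.

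Both routes to secretory progenitors were then set against each other, dibenzazepine against loss of Rbpj. In DBZ Sec-Pro 10 members were lower than in Rbpj Sec-Pro and 1 was higher (limma, adjusted p under 0.05), where 7.08% of all genes were lower and 9.34% higher. The median was -0.23 over the members and 0.06 over all genes, and 10 members had the higher mean in DBZ Sec-Pro. The lower calls fell to 0 without DBZ Sec-Pro replicate 2, to 5 without its replicate 1 and to 4 without either Rbpj Sec-Pro or either Ent-Pro array, and they were 5 without either ENT array. The median stayed at -0.30 to -0.14. DBZ Sec-Pro replicate 2 had the largest 3′ excess for Actb outside ISC, at 1.01, and its part was not tested. For 29 members read by both kinds of probe set, the median was -0.35 over probe sets with a plain _at ID and -0.16 over the others.

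Sdhb and Sdhd of complex II and Uqcrc1 of complex III were among the lower members. Sdhd read 12.07 and 12.20 after loss of Rbpj and 11.58 and 11.31 after dibenzazepine (-0.69, SE 0.15, adjusted p = 0.018), though its dimmer probe set gave 0.20. Sdhb read 12.67 and 12.78 against 12.25 and 11.99 (-0.60, SE 0.14, adjusted p = 0.024). Uqcrc1 read 12.78 and 12.83 against 12.27 and 11.98 (-0.68, SE 0.14, adjusted p = 0.015). The groups did not overlap for any of the 3, and Sdhd and Uqcrc1 lost their call only without DBZ Sec-Pro replicate 2. None of the 8 members named by rule here kept its call without each array in turn. In complex I, Ndufaf4 (-0.59, SE 0.17, adjusted p = 0.043), Ndufa5 (-0.52, SE 0.15, adjusted p = 0.043), Ndufc1 (-0.48, SE 0.14, adjusted p = 0.045), Ndufs4 (-0.45, SE 0.11, adjusted p = 0.029) and Ndufa12 (-0.40, SE 0.11, adjusted p = 0.040) were lower.

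In complex IV 2 members were lower and 1 was higher. Cox7a1 read 10.45 and 10.78 after loss of Rbpj and 9.97 and 9.26 after dibenzazepine (-1.0, SE 0.26, adjusted p = 0.035). Cox6b2, the testis isoform of subunit VIb, read 6.44 and 6.02 against 5.46 and 5.62 (-0.69, SE 0.17, adjusted p = 0.031). Its values after dibenzazepine were at the level of the stromal markers. Cox7a2l was the higher one, at 10.69 and 11.02 against 11.44 and 11.62 (0.67, SE 0.15, adjusted p = 0.023), and its other probe sets gave 0.10 and 0.14. Enterocyte markers differed as well, averaging 13.92 and 13.60 after loss of Rbpj and 13.25 and 12.77 after dibenzazepine, with 3 of 8 called lower. Their part was not tested.

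Comparisons with the stem cells rest on arrays with a 3′ excess in Gapdh and Actb, and values differed there by the kind of probe set. For the 29 members read both by a probe set with a plain _at ID and by another kind, the median of ENT minus ISC was 0.76 over the former and 0.42 over the latter. For Ent-Pro minus ISC it was 0.31 and 0.05, and for Sec-Pro minus ISC 0.02 and -0.28, whereas for ENT minus Ent-Pro it was 0.35 and 0.32. Among 40 members with several probe sets of mean above 8, the sign differed within the gene for 15, 9 and 16 members in Ent-Pro, ENT and Sec-Pro against ISC. In ENT against Ent-Pro, Sec-Pro against Ent-Pro and DBZ Sec-Pro against Rbpj Sec-Pro it differed for 4, 2 and 5. The part of the 3′ excess in the differences from ISC was not tested.

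**Figure D5:**
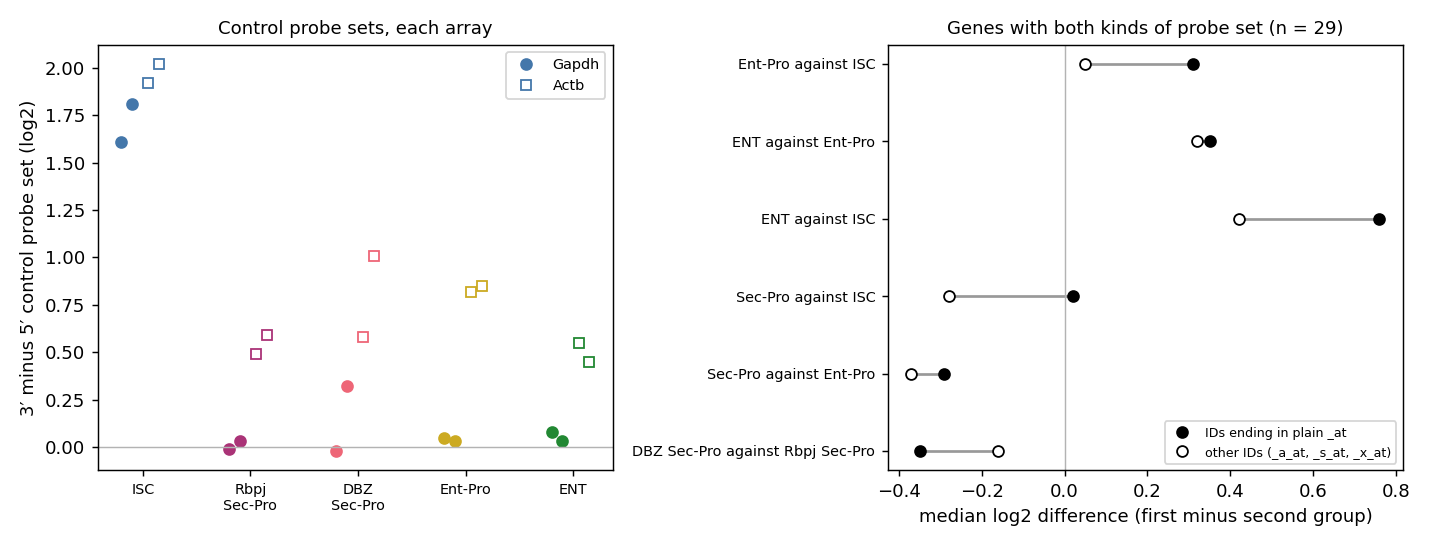
Left, 3′ minus 5′ control probe set (log2) for Gapdh and Actb on each array. Right, median log2 difference over 29 members for probe sets with plain _at IDs and for the others. The ISC arrays lie at 1.61 to 2.02 on the left, and on the right the plain _at medians lie above the others in all 3 comparisons with ISC.

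In Ent-Pro 22 members were higher and 7 lower than in ISC, where 12.1% and 13.5% of all genes were, and the median was 0.15 against -0.02 over all genes. In ENT 42 were higher and 6 lower than in ISC (22.3% and 26.8% of all genes), with a median of 0.35 against -0.01. In Sec-Pro 14 were higher and 29 lower (18.0% and 27.2% of all genes), with a median of -0.13 against -0.11, and 19 of the 29 lower were in complex I. Taken singly, Rbpj Sec-Pro had 18 higher and 19 lower than ISC (17.7% and 29.4% of all genes) and DBZ Sec-Pro 3 and 31 (15.9% and 20.3%). Without ISC replicate 1 or 2 the lower calls in Sec-Pro were 18 and 17 and the higher ones 7 and 5, and without DBZ Sec-Pro replicate 1 the higher ones were 9. Lower calls in Ent-Pro were 4 and 2 without ISC replicate 1 or 2 and 2 and 1 without Ent-Pro replicate 1 or 2, and higher calls were 12 without ISC replicate 2 and 13 without either Ent-Pro array. Lower calls in ENT were 2 or 3 when any one of the ISC or ENT arrays was left out, against 36 to 43 higher ones. Of all calls over the array 47.3%, 45.4% and 39.8% were higher for Ent-Pro, ENT and Sec-Pro, against 59.9% and 62.9% with arrays centred for the former pair and 49.9% after cyclic loess for Sec-Pro. Group means rose in the order ISC, Ent-Pro, ENT for 49 members, 58.3% against 26.2% of all genes, and fell in that order for 2 members, 2.38% against 25.9%. These comparisons share the ISC arrays. ISC also differed from the other groups in genotype or treatment, which cannot be told apart from cell type. Leukocyte markers averaged 5.77 and 6.02 in ISC, with 7 of 15 called higher and 2 lower in ENT and 6 and 1 in Sec-Pro, and Ptprc read 4.40 and 4.56 in ISC against 6.06 to 9.83 elsewhere. Proliferation genes averaged 10.17 and 10.03 in ISC, with 14 of 14 called lower in ENT, 9 lower in Sec-Pro and 3 higher in Ent-Pro. Their part in the differences of the members was not tested.

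Cox7a1 differed most from the stem cells. It read 7.17 and 6.60 in ISC and 9.26 to 12.21 on the other arrays, so that ENT was 39.5-fold above ISC (5.30, SE 0.26, adjusted p = 2.9e-06), Ent-Pro 9.98-fold (adjusted p = 1.3e-04) and Sec-Pro 9.35-fold (adjusted p = 2.2e-05). It has 1 probe set, of the plain _at kind. Cox7a2 read 13.32 and 13.15 in ISC and 14.03 and 13.96 in ENT (0.76, SE 0.11, adjusted p = 4.9e-04), and its other probe set gave 1.03. Cox6b2 ran the other way, at 7.58 and 7.35 in ISC and 5.46 to 6.44 elsewhere, and was lower in ENT (-1.58, SE 0.17, adjusted p = 8.7e-05), in Ent-Pro (-1.26, SE 0.17, adjusted p = 0.0013) and in Sec-Pro (-1.58, SE 0.15, adjusted p = 7.3e-05). Its lowest values outside ISC were near the level of the stromal markers and may read little more than background. Cox7a2l was also highest in ISC, at 12.54 and 12.35, and differed from it most in Sec-Pro (-1.25, SE 0.13, adjusted p = 1.3e-04).

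In complex II all 4 subunits were higher in ENT than in ISC. Sdha read 11.61 and 11.46 in ISC, 12.50 and 12.48 in Ent-Pro and 12.51 and 12.68 in ENT. Its difference was already called between Ent-Pro and ISC (0.96, SE 0.17, adjusted p = 0.0040), though its other probe set gave 0.14. Sdhd read 11.35 and 11.05 in ISC and 12.65 and 12.66 in ENT (1.46, SE 0.15, adjusted p = 5.3e-05), and Sdhb and Sdhc were higher in ENT by 0.89 (adjusted p = 6.6e-04) and 0.58 (adjusted p = 0.011). In complex III, Uqcrfs1 read 11.48 and 11.32 in ISC, 12.35 and 12.38 in Ent-Pro and 13.05 and 13.12 in ENT, with calls at both steps (ENT minus ISC 1.69, SE 0.15, adjusted p = 2.4e-05).

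Complex I held members low in ISC and members high in ISC. Ndufs1 read 10.26 and 10.39 in ISC against 11.39 and 11.52 in ENT (1.13, SE 0.15, adjusted p = 2.6e-04), and Ndufa9 rose by 1.14 (SE 0.13, adjusted p = 1.1e-04). Ndufs7 read 12.94 and 13.10 in ISC and 11.72 to 12.46 elsewhere (ENT minus ISC -0.67, SE 0.14, adjusted p = 0.0032), but its plain _at probe set gave 0.53. Ndufab1, the mitochondrial acyl carrier protein, was higher in Ent-Pro than in ISC by 1.01 (SE 0.16, adjusted p = 0.0024), while its dimmer probe sets gave -0.70 and 0.53. The direction of Ndufs7 and Ndufab1 against ISC therefore depended on the probe set. In complex V, Atp5b, the catalytic beta subunit, read 13.04 and 12.95 in ISC and 14.00 and 14.07 in ENT (1.04, SE 0.15, adjusted p = 3.6e-04), and Atp5l rose by 1.13 (SE 0.12, adjusted p = 6.2e-05). Atp5k was lower than in ISC in Ent-Pro (-0.39, SE 0.12, adjusted p = 0.039) and in Sec-Pro (-0.64, SE 0.10, adjusted p = 0.0010).

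The remaining isoforms of complex IV differed less. Cox4i1, the common form of subunit IV, read 13.73 and 13.65 in ISC, 13.50 to 13.80 in Sec-Pro, 13.80 and 13.82 in Ent-Pro and 14.04 and 14.05 in ENT, and was called in ENT against ISC alone of the 6 comparisons (0.35, SE 0.12, adjusted p = 0.031). Cox4i2, a form known from lung, ranged from 5.88 to 6.29 with no call. Cox6a1 read 14.31 and 14.23 in ISC and 14.88 and 14.86 in ENT (0.60, SE 0.11, adjusted p = 0.0012), while its muscle counterpart Cox6a2 ranged from 6.18 to 6.75 with no call. Cox6c and Cox8a were higher in ENT than in ISC by 0.58 (adjusted p = 0.0049) and 0.77 (adjusted p = 9.3e-04). The testis form Cox8c had both ENT arrays, at 7.78 and 7.73, above the others, at 7.11 to 7.63, but passed in none of the 6 comparisons, and the muscle form Cox8b lay at 5.76 to 5.98 in ISC and Ent-Pro and 5.23 to 5.48 elsewhere.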

How the data were processed

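Total RNA of 10 samples in 5 groups was read on 10 arrays. The authors deposited log2 values per probe set. The submitters' processing notes name RMA and MAS5, with no version or role. Values were used as deposited, so any normalization that the authors applied stays in them. The file holds 22690 probe sets; 64 control probe sets were left out, 20380 have 1 gene symbol in the platform annotation and 691 have several and were not used. Each gene was represented by its probe set of highest mean.

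Group means of 12393 genes were fitted with limma 3.58.1 in R 4.3.3 (lmFit, eBayes; 5 residual and 3.75 prior degrees of freedom). P-values were adjusted over all genes (Benjamini-Hochberg), with a threshold of 0.05. With 2 arrays per group, the number of arrays limits precision. The scripts were tested on simulated data. Members and lists were chosen with earlier results of these data known. Members were named by a rule: per comparison and complex, up to 2 largest called rises and 2 largest called falls whose arrays do not overlap, the isoform sets of complexes IV and V, Ndufa4 and Sdha to Sdhd, and from each other mitochondrial list up to 4 called genes of largest change. Other members were named after their values were seen. The lists include leukocyte, stromal and erythroid markers. Stromal markers averaged 5.15 to 5.72 and erythroid markers 4.64 to 5.22 on all arrays. Alternatives were another scaling, other choices of probe set, a trend in the prior, a level filter, a replicate block, fits to fewer arrays and each array left out. Using plain _at probe sets only and leaving ISC out of the fit were added after the 3′ excess of Gapdh and Actb was seen.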

Additional observations from a re-analysis of the deposited data

Results flagged for a closer look

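Rbpj Sec-Pro and DBZ Sec-Pro were prepared as the same kind of progenitor by different routes, and 11 members differed between them in the direct test (limma, Benjamini-Hochberg over all genes). With 10 lower and 1 higher of 84, against 7.08% and 9.34% of all genes, the members were called no more often than all genes when both directions are counted. No lower or higher call was left without DBZ Sec-Pro replicate 2 (0 and 0) or in a fit to only the arrays compared (0 and 0). DBZ minus Rbpj on the log2 scale was -1.0 (adjusted p = 0.035) for Cox7a1, -0.69 (adjusted p = 0.018) for Sdhd, -0.69 (adjusted p = 0.031) for Cox6b2 and -0.68 (adjusted p = 0.015) for Uqcrc1. It was -0.60 (adjusted p = 0.024) for Sdhb, -0.59 (adjusted p = 0.043) for Ndufaf4, -0.52 (adjusted p = 0.043) for Ndufa5 and -0.48 (adjusted p = 0.045) for Ndufc1. For Ndufs4 it was -0.45 (adjusted p = 0.029), for Ndufa12 -0.40 (adjusted p = 0.040), and for Cox7a2l, the one higher in DBZ Sec-Pro, 0.67 (adjusted p = 0.023). Other probe sets of the same gene gave -0.05 for Ndufaf4, -0.67 for Ndufa5, -0.37 for Ndufc1 and 0.03 and -0.08 for Ndufs4. In all 11, both arrays of one group lay above both arrays of the other. Groups of 2 arrays are too small for a test of single outlying arrays.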

How the results depend on the processing

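Of the recomputed counts and medians, 304 stayed within 1.5 times the count, or within the replicate spread for a median, and 74 moved. With arrays centred on their medians, there were 4 lower calls for Ent-Pro against ISC, 4 for ENT against Ent-Pro, 2 for ENT against ISC and 43 for Sec-Pro against Ent-Pro. Of all genes 10.3%, 17.2%, 20.9% and 20.2% were lower in the same order. The members' medians of the former 3 were 0.27, 0.39 and 0.60, and those of all genes 0.10, 0.15 and 0.24. After cyclic loess, Ent-Pro against ISC had 12 lower and a median of 0.04, ENT against Ent-Pro 53 higher and 0.44, Sec-Pro against Ent-Pro a median of -0.16, and DBZ against Rbpj Sec-Pro 18 lower. Of all genes 13.3%, 20.3% and 8.29% were called in the directions of these counts, so the 12 lower were near the share of all genes. Under both, 0 of 99 named values reversed, but 6 lost their call with arrays centred and 11 after cyclic loess.

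With only plain _at probe sets (63 members, chosen after seeing the data), Ent-Pro against ISC had 3 lower and a median of 0.28, ENT against Ent-Pro 16 higher, ENT against ISC a median of 0.56, Sec-Pro against ISC 10 lower and 0.00, Sec-Pro against Ent-Pro 17 lower, and DBZ against Rbpj 0 higher and -0.30; fewer members are tested there. Of all genes 11.8%, 17.6%, 25.4%, 13.7% and 8.70% were called in the directions of these counts, in their order. Ndufs7 reversed against ISC in Ent-Pro (0.26) and ENT (0.53). Ndufab1 reversed there and without _x_at and _s_at probe sets, at -0.70 in Ent-Pro and -0.83 in Sec-Pro, and at -0.16 in Sec-Pro with the mean of probe sets. ENT against ISC had a median of 0.49 without _x_at and _s_at probe sets and 3 lower with the mean of probe sets, where DBZ against Rbpj had 0 higher. With the mean of probe sets, 25.6% of all genes were lower in ENT than in ISC and 9.04% higher in DBZ than in Rbpj Sec-Pro. With a trend in the prior DBZ against Rbpj had 18 lower, where 7.37% of all genes were. With only the arrays compared DBZ against Rbpj had 0 higher and 0 lower, and Sec-Pro against ISC had 9 higher. Shares of all genes are not given for the fits to only the arrays compared. Rbpj Sec-Pro alone gave 19 lower and a median of -0.01 against ISC, and 13 lower and -0.20 against Ent-Pro. DBZ Sec-Pro alone gave 3 higher and -0.20 against ISC, and -0.40 against Ent-Pro. The causes were not tested.

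Leaving out each array in turn gave 12 to 22 higher, 1 to 8 lower and a median of 0.13 to 0.19 for Ent-Pro against ISC; 7 to 34, 3 to 7 and 0.22 to 0.30 for ENT against Ent-Pro; 36 to 43, 2 to 6 and 0.32 to 0.40 for ENT against ISC. It gave 5 to 13, 17 to 32 and -0.18 to -0.07 for Sec-Pro against ISC, 0, 1 to 39 and -0.34 to -0.25 for Sec-Pro against Ent-Pro, and 0 to 2, 0 to 7 and -0.30 to -0.14 for DBZ against Rbpj; a lone array is then assumed to vary like the other groups. The F test called 67 to 78. With the replicate number as a block, higher and lower calls were 20 and 6, 28 and 5, 40 and 5, 12 and 26, 0 and 25, and 1 and 8 in the same order, with medians unchanged. Of all genes 11.4% and 12.7%, 17.6% and 19.6%, 21.6% and 26.2%, 17.5% and 25.9%, 8.55% and 12.6%, and 7.67% and 6.15% were called higher and lower. Differences of replicate 1 minus 2 were little correlated between groups (-0.19 to 0.17 over 10 pairs of groups, 1 above 0.1). This shows no strong common replicate effect and cannot show whether samples were paired.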

Other observations

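Uqcr10, a small subunit of complex III, had the widest range over its probe sets in DBZ Sec-Pro against Rbpj Sec-Pro. Its brightest probe set gave -0.25, and its other 2 gave -2.80 and -2.03, their group means being 9.88 and 10.22 after loss of Rbpj against 7.08 and 8.18 after dibenzazepine. In ENT against Ent-Pro the 3 gave 0.22, 1.30 and 0.35. Which transcripts these probe sets read was not tested.

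Respiratory chain genes read only by probe sets with several symbols were left out of the 84. The probe set naming Ndufa11 had group means of 11.20 in ISC, 11.42 in Rbpj Sec-Pro, 11.30 in DBZ Sec-Pro, 11.59 in Ent-Pro and 12.11 in ENT. The plain _at probe set naming Ndufb4 had 11.69, 11.37, 11.39, 11.81 and 12.11 in the same order, and its _s_at probe set 11.35, 11.42, 11.30, 11.68 and 12.10. The probe set naming Ndufs6 had 11.93, 11.52, 11.45, 11.95 and 11.97. They were not tested here.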
